A study of Macaca fascicularis with 2 samples.

Results

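The genes described here are 10 inflammatory chemokines and cytokines, CXCL8, CXCL2, CCL2, CCL3, CCL5, CCL8, CCL20, IL1B, IL6 and TNF. They were chosen by gene symbol, and 9 of the 10 matched a feature by that symbol among the 28845 features of the count tables. CXCL2 was not analysed here. Levels were read in 6 classes of cells gated by marker genes, which were macrophages, S100A8/S100A9-high myeloid cells, T cells, endothelial cells, mural cells and stromal cells.

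Chemokines are small secreted proteins that draw leukocytes along a gradient through receptors on their surface. CXCL8 and CXCL2 act mainly on neutrophils, CCL2 and CCL8 on monocytes, CCL3 and CCL5 on monocytes and T cells, and CCL20 on cells that carry the receptor CCR6. IL1B, IL6 and TNF are cytokines made early in inflammation, and IL1B and TNF induce further chemokines through the transcription factor NF-kB in vessel and connective tissue cells. Macrophages of the testis lie between the tubules and on their walls, and are known for a restrained inflammatory response.

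The tissue was testis of cynomolgus monkeys (Macaca fascicularis), measured by droplet single-cell RNA sequencing of transcript 3' ends. One library came from a testis placed in the abdomen by surgery (UAT, a model of undescended testis) and 1 from the opposite testis, left in the scrotum (CST). The labels give no age, no time since surgery and no number of animals, and the CST comes from an operated animal model rather than from an untouched animal. With 1 library per position no test between UAT and CST was possible, and no p-value is given.

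The UAT library held 12564 barcodes with 111047299 UMIs (unique molecular identifiers, each counting 1 captured molecule), and the CST library 15952 barcodes with 197225937 UMIs. The 6 classes took 7829 UAT and 2271 CST cells. The gates fix the detection of their own markers, so that is no check of the classes. In all classes but the S100A8/S100A9-high cells, genes that no gate used were among the 10 leading genes in both libraries. They were FOLR2 and GPR34 in macrophages, NKG7 and GZMK in T cells, and GPIHBP1 and SOX18 in endothelial cells. In mural cells they were NDUFA4L2 and ITGA7, and in stromal cells VIT and ABI3BP. NKG7 was also on the list of natural killer cell markers. The UAT stromal list was led by HBB, a haemoglobin gene. The lists of S100A8/S100A9-high cells shared only the gating genes S100A9 and S100A8. The median depth was lower in CST in every class, for example 5818 UMIs per UAT macrophage and 4198 per CST macrophage. RNA of spermatids, the haploid germ cells, made up 3793 to 7705 CPM (UMIs per 1000000 UMIs of the class) in the CST classes and 1.87 to 6.40 CPM in the UAT classes. The summed level of a class's own markers also differed between the libraries. It was 19829 CPM in UAT and 10495 CPM in CST macrophages, 2957 and 1559.6 CPM in T cells, 5828 and 3441 CPM in endothelial cells, and 21888 and 20328 CPM in stromal cells. The part of these differences in the gene levels below was not tested. The libraries shared 50 barcodes, of which 19 were UAT stromal cells and 0 to 6 fell in each other class of the 6.

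In both testes most of these transcripts were in macrophages. Macrophages held 68.0% of all CXCL8 UMIs of the UAT library and 70.8% of those of the CST library. For CCL3 the shares were 71.7% and 74.6%, for IL1B 60.0% and 70.05%, for TNF 67.3% and 56.7%, and for CCL8 84.0% and 75.6%. CCL5 was instead a T cell transcript, with 53.5% of its UAT and 39.3% of its CST UMIs in the T cell gate. Stromal cells, the largest of the 6 classes, held the largest share of IL6 UMIs, 57.4% in UAT and 48.7% in CST. The IL6 level did not set them far apart, at 13.02 CPM in UAT stromal cells, 10.6 CPM in UAT endothelial cells and 8.41 CPM in UAT macrophages. In CST it was at 3.50 CPM in stromal and 2.35 CPM in endothelial cells, with 0 UMIs in macrophages. Barcodes outside the gates held 29.9% of CCL5 UMIs in UAT and 52.8% in CST. Cells that met the gates of several classes at once were left out, and in UAT they held 14.6% of CXCL8 and 14.6% of CCL3 UMIs.

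**Figure D1:**
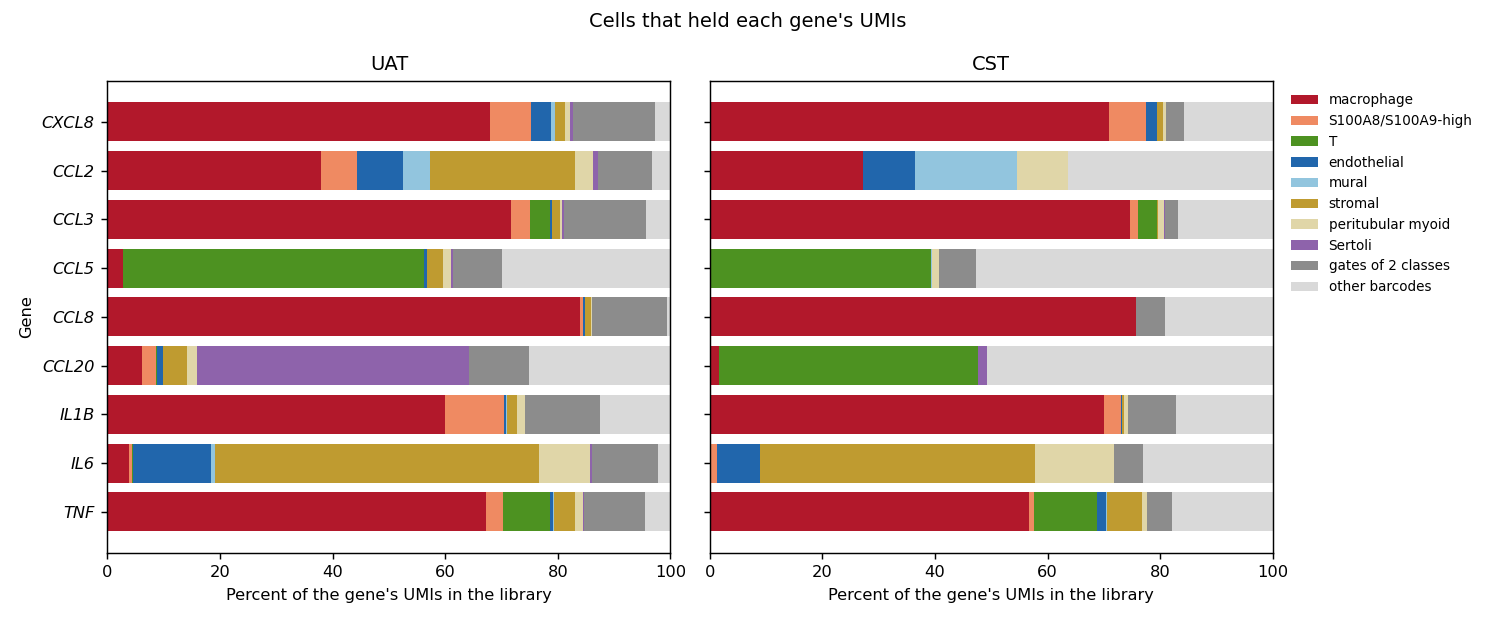
Stacked bars give the percent of each gene's UMIs in a library (x axis) that lay in each gated class, in cells meeting several gates and in other barcodes, for UAT (left) and CST (right). Macrophages hold the largest share of CXCL8, CCL3, CCL8, IL1B and TNF in both testes, with 68.0% and 70.8% for CXCL8, while CCL5 has 53.5% and 39.3% in T cells and IL6 has 57.4% and 48.7% in stromal cells. In CST the largest share of CCL5, 52.8%, is in other barcodes.

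The levels fell into a steep order across the classes. CXCL8 reached 2584 CPM in UAT macrophages and 3709.8 CPM in UAT S100A8/S100A9-high cells, against 75.4 CPM in mural, 46.7 in endothelial, 8.80 in T and 7.28 CPM in stromal cells. CST followed with 1931 CPM in macrophages, 5318 in S100A8/S100A9-high cells, 13.7 in endothelial and 1.57 in stromal cells, and with 0 UMIs in T and mural cells. TNF was at 423 and 289 CPM in UAT and CST macrophages and at 198 and 104 CPM in T cells, and did not exceed 3.59 CPM in endothelial, mural or stromal cells of either library. CCL2, which attracts CCR2-bearing monocytes, was rare throughout, with 124 UMIs in the whole UAT and 11 in the whole CST library.

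**Figure D2:**
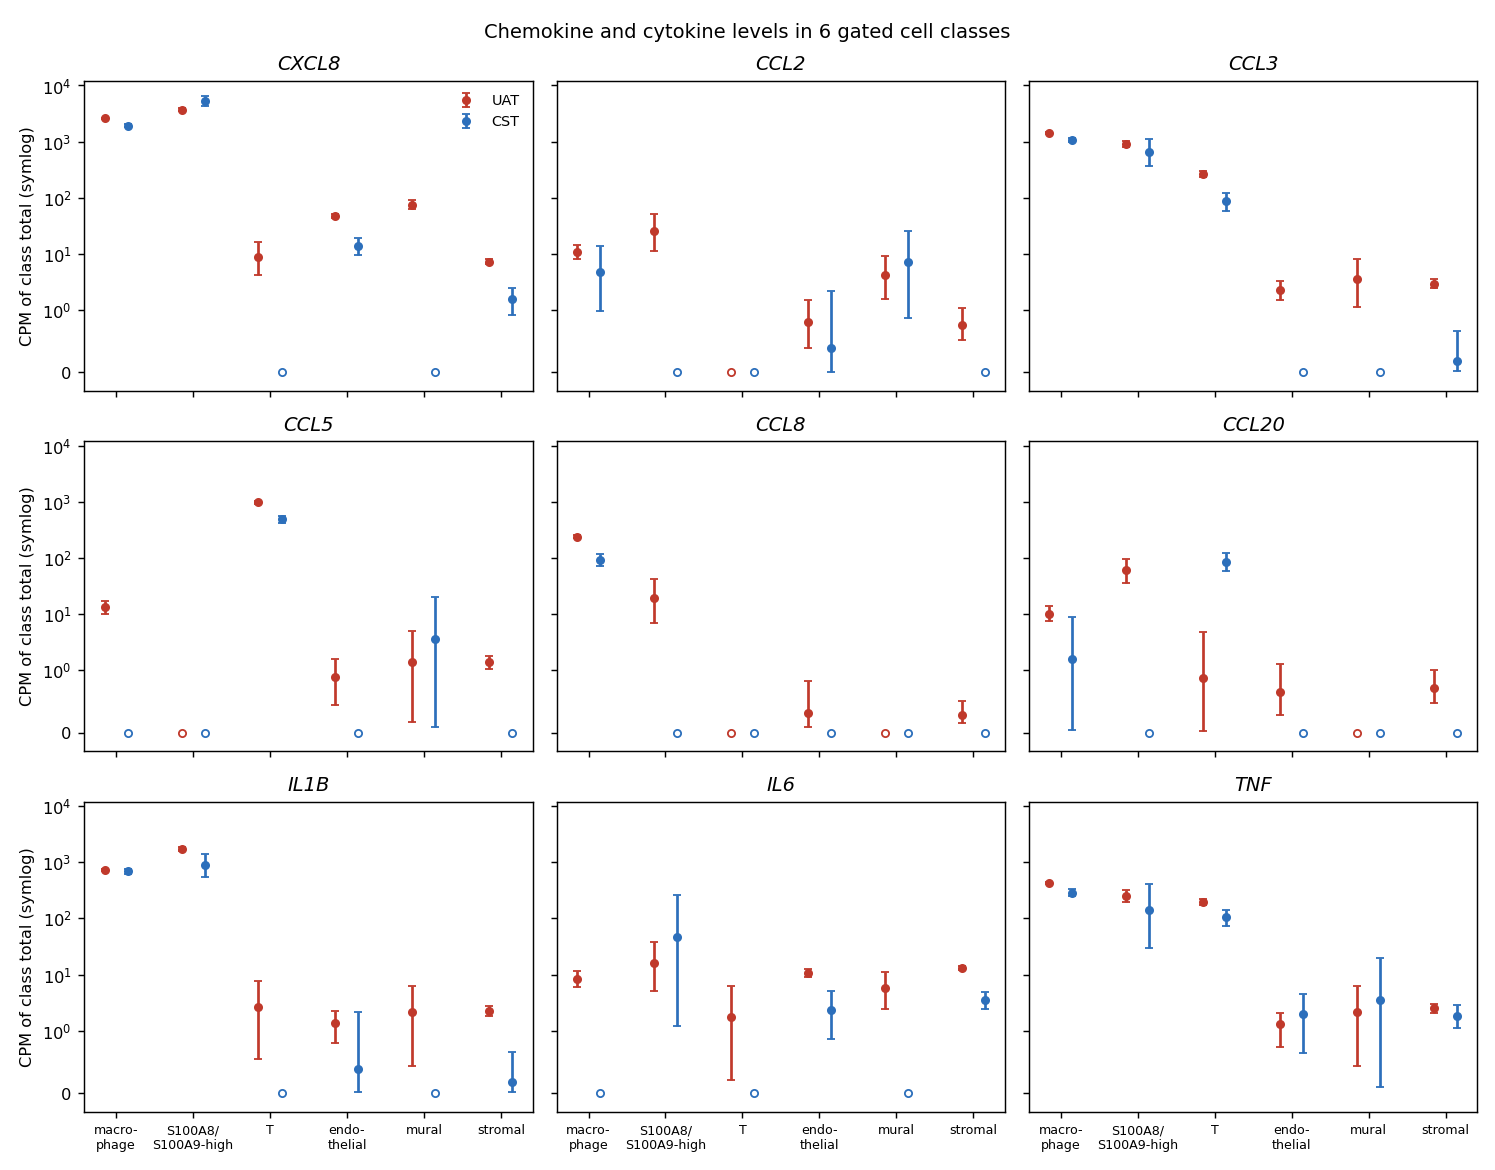
CPM of the summed class (y axis, linear below 1 and logarithmic above) for 9 genes in 6 gated classes (x axis), UAT in red and CST in blue. Bars are exact Poisson intervals at 95%, which cover counting error only, and open circles mark 0 UMIs. Myeloid classes carry CXCL8, CCL3, IL1B and TNF in both testes, with CXCL8 at 2584 CPM in UAT and 1931 CPM in CST macrophages.

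For comparison between the testes, a gene counted as measured in a class where the library with more of it had 20 CPM or more, from 10 UMIs or more. It counted as higher or lower when UAT and CST differed by at least 2-fold on the log2(CPM + 10) scale, which understates the change of low genes. Ratios carry an exact conditional binomial interval at 95%, for counting error alone. Over the 5 classes with at least 50 cells in both libraries, 11 pairs of gene and class were measured, of which 5 were higher and 1 was lower in UAT. Of these 11, 3 passed the filter through 1 library alone and so had to differ, which were CXCL8 in endothelial and mural cells and CCL20 in T cells. The other 8 passed it in both libraries, and 3 of them were higher and 0 lower. Of all features measured by the same rule, 1.88% to 16.2% were higher and 20.1% to 29.6% lower, depending on the class. No share was taken over features past the filter in both libraries, so 3 of 8 is not read as a result about these genes.

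Macrophages of both testes carried the neutrophil attractant CXCL8, the chemokine CCL3 and the cytokines IL1B and TNF, with UAT to CST ratios from 1.05 to 1.46, and CCL8 was the gene that passed 2-fold. Of the 9 genes 5 were measured in 601 UAT and 103 CST macrophages. Of these 5, 1 was higher and 0 were lower, while of all 8286 features measured there 5.67% were higher and 24.1% lower in UAT. The CPM of CXCL8 gave a UAT to CST ratio of 1.34 (1.26 to 1.42). CCL3, read at 1423 CPM in UAT and 1075 CPM in CST, had a ratio of 1.32 (1.22 to 1.44). IL1B, whose protein is released after cleavage by caspase-1, stood at 724 CPM in UAT and 687 CPM in CST, with a ratio of 1.05 (0.95 to 1.17). TNF had a ratio of 1.46 (1.26 to 1.71). These 4 ratios lie below the 2-fold limit, and that of IL1B has an interval that includes 1. Set against the complement genes C1QA, C1QB and C1QC, which were among the gating markers and had more CPM in UAT, the order turned. There were 0.29 (0.28 to 0.29) CXCL8 UMIs per C1Q UMI in UAT and 0.42 (0.39 to 0.44) in CST macrophages. The values were 0.16 in UAT and 0.23 in CST for CCL3, 0.081 and 0.148 for IL1B, and 0.047 and 0.062 for TNF.

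Detection of the same 4 genes per cell was close between the testes once every cell was reduced at random to 1000 UMIs. CXCL8 was then seen in 53.1% of 595 UAT and in 50.5% of 103 CST macrophages, and before thinning in 63.9% and 60.2%. CCL3 was seen in 44.0% and 40.8%. IL1B was seen in 25.7% and 29.1%, and TNF in 26.7% and 33.0%, so that for these 2 genes the thinned share was lower in UAT while the summed CPM was higher. The thinned levels were also lower in UAT for CCL3 (1410.1 and 1583 CPM), IL1B (585 and 738 CPM) and TNF (504 and 583 CPM). No order between the testes is read from these data for these 3 genes. In germ cells, which should lack CXCL8, the unthinned share was 7.69% in UAT and 0.47% in CST spermatids, and after thinning 0.77% and 0.08%.

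**Figure D3:**
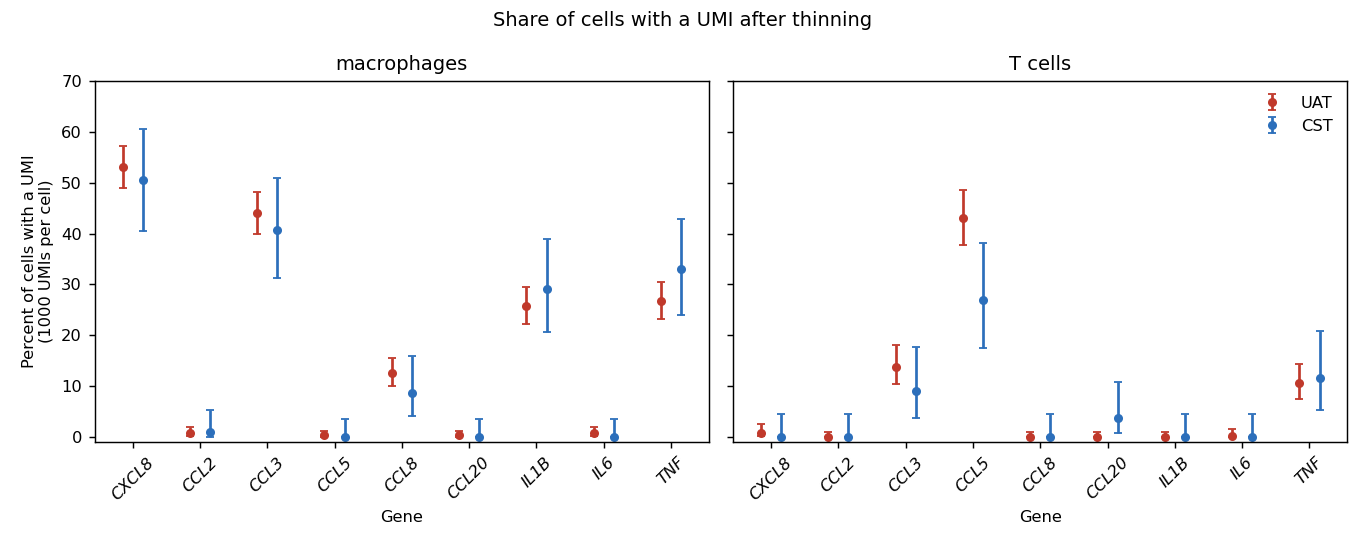
Percent of cells with at least 1 UMI after thinning to 1000 UMIs per cell (y axis) for 9 genes (x axis) in macrophages (left) and T cells (right), UAT in red and CST in blue, with exact binomial intervals at 95%. In macrophages the intervals of the testes overlap for each gene, and CXCL8 is seen in 53.1% of UAT and 50.5% of CST cells.

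CCL8, also called MCP-2, was at 238 CPM in UAT and 93.2 CPM in CST macrophages, a ratio of 2.55 (1.96 to 3.38). It was seen in 12.6% of thinned UAT and 8.74% of thinned CST macrophages. The CST value rests on 59 UMIs in 19 cells. In thinned cells the levels were 239 and 184 CPM, and as a mean of single-cell CPM 284 and 152, both short of 2-fold. Per C1Q UMI, CCL8 was at 0.0265 (0.0249 to 0.0282) in UAT and 0.0200 (0.0152 to 0.0259) in CST, and these intervals overlap. The genes whose pattern was most like that of CCL8 over the 12 sums of class and library were TREM2 and CHIT1, both macrophage genes, with a Pearson r of 0.997 for each. This is a description over sums that share libraries.

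The other 4 genes were not measured in macrophages. CCL2 stood at 11.0 CPM in UAT and 4.74 CPM in CST. CCL20 had 44 UMIs in 4 UAT macrophages, 70.5% of them in 1 cell, and 1 UMI in CST. CCL5 had 58 UMIs in UAT, 56.9% of them in 1 cell, and IL6 had 36 UMIs in 10 cells, with 0 UMIs of either in CST macrophages.

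The UMIs of the macrophage genes were concentrated in few cells. The top 5 cells held 7.21% of CXCL8 UMIs in UAT and 28.8% in CST macrophages. For CCL3 they held 7.32% and 33.2%, for IL1B 12.1% and 45.3%, for TNF 7.34% and 29.0%, and for CCL8 19.0% and 54.2%. The CST group had 103 cells and the UAT group 601, so 5 cells are a larger part of it. The top 20% of macrophages held 69.6% of CXCL8 UMIs in UAT and 71.2% in CST. They held 75.6% and 77.1% of CCL3, 85.3% and 86.2% of IL1B, 72.5% and 65.0% of TNF, and 95.9% and 100% of CCL8.

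**Figure D4:**
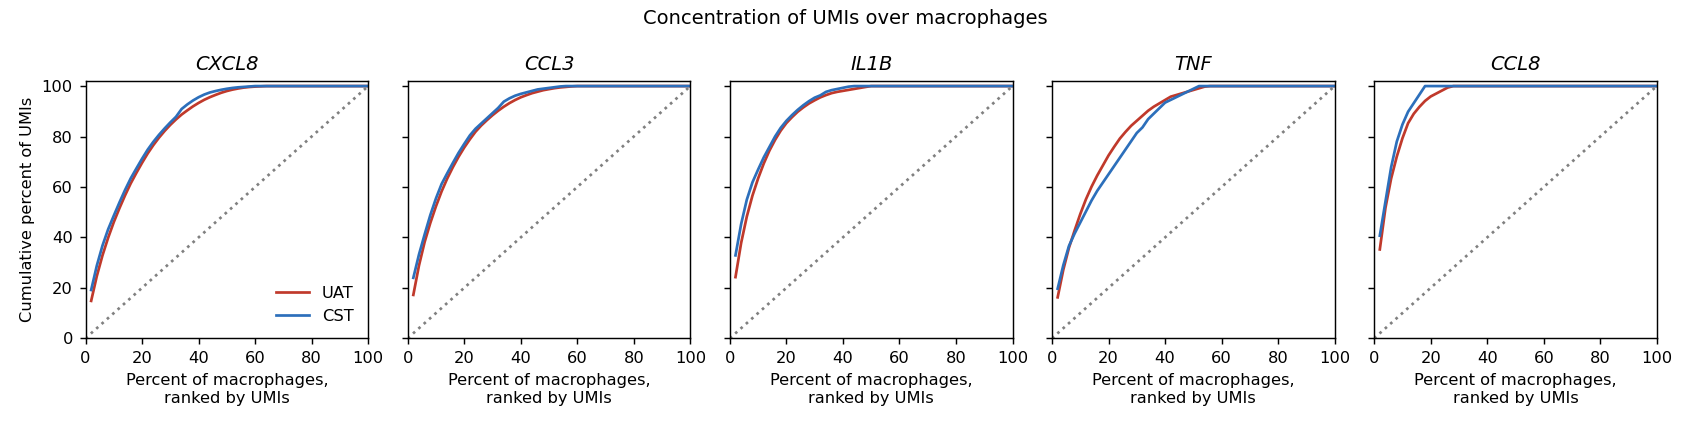
Cumulative percent of a gene's UMIs (y axis) over macrophages ranked from the highest (x axis, percent of macrophages) for 5 genes, UAT in red and CST in blue. The dotted line is an even spread. The top 20% of cells hold 69.6% and 71.2% of CXCL8 UMIs in UAT and CST and 72.5% and 65.0% of TNF UMIs. At the steep left end CST lies higher, with 32.9% of IL1B UMIs in the top 2% of cells beside 24.3% in UAT. Cell numbers are rounded up, so this point takes in a larger part of the smaller CST group, and the gap is not read as a difference.

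Detection of CXCL8, CCL3, IL1B and TNF overlapped in macrophages, while their top cells were mostly not the same. Of the 5 cells with the most CXCL8 and the 5 with the most IL1B, 1 was shared in UAT and 0 in CST, and CXCL8 and CCL3 shared 0 in either library. In thinned UAT cells CXCL8 was seen in 62.1% of macrophages with IL1B and in 221 of the 442 without it, and in CST in 63.3% and 45.2%. In UAT, CXCL8 was seen in 65.4% of macrophages with TNF and in 48.6% of those without it, and in CST in 73.5% and 39.1%. CCL3 was seen in 59.5% of UAT macrophages with IL1B and in 38.7% of those without, and in CST in 56.7% and 34.2%. IL1B and TNF lay closer, with IL1B in 29.6% of UAT macrophages with TNF and 24.3% without, and in CST 32.4% and 27.5%. CCL8 went the other way with IL1B, at 7.19% of UAT macrophages with IL1B and 14.5% without, and in CST 6.67% and 9.59%. CXCL8 was seen in 48.0% of UAT macrophages with CCL8 and 53.8% without, and in CST in 77.8% and 47.9%. None of CXCL8, CCL3, IL1B and TNF was seen in 20.3% of UAT and 24.3% of CST macrophages, and all 4 were seen in 4.37% and 6.80%.

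S100A8/S100A9-high cells, named for a protein pair abundant in monocytes and neutrophils, carried the highest IL1B and CXCL8 levels. They numbered 42 in UAT and 9 in CST and were not compared. Their leading genes differed between the libraries. UAT cells were led, beside S100A9 and S100A8, by EREG and FCN1, which monocytes express, and CST cells by OLFM4 and LTF, which encode granule proteins of maturing neutrophils. IL1B was at 1733 CPM in UAT and 894 CPM in CST, CCL3 at 918 and 659 CPM, and TNF at 253 and 141 CPM. The CST values come from 21250 UMIs in all, its TNF level from 3 UMIs and its IL1B level from 19 UMIs in 2 cells. The interval of that IL1B level, 538 to 1396 CPM, includes the 687 CPM of CST macrophages, so their order in CST is not settled. In UAT the top 5 cells held 35.4% of CXCL8, 57.2% of IL1B, 71.4% of CCL3 and 92.4% of TNF UMIs. In CST they held 92.9% of the CXCL8 UMIs. All 17 thinned UAT cells with IL1B also had CXCL8, against 12 of 21 without IL1B. CCL20 was at 60.8 CPM in UAT, from 19 UMIs in 5 cells, and at 0 UMIs in CST.

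T cells carried CCL5 and CCL3, 2 CC chemokines of cytotoxic lymphocytes, and the summed CPM of both was higher in UAT. Of all CCL3 UMIs, T cells held only 3.51% in UAT and 3.29% in CST, far less than macrophages. There were 341 UAT and 78 CST T cells. Of the 9 genes 4 were measured, of which 2 were higher and 1 was lower in UAT, beside 12.7% higher and 29.6% lower among 7980 features. The lower gene, CCL20, passed the filter through CST alone and so had to differ. CCL5 was at 994 CPM in UAT and 488 CPM in CST, a ratio of 2.04 (1.73 to 2.41). CCL3 was at 262 and 86.6 CPM, a ratio of 3.03 (2.08 to 4.57), with 30 UMIs behind the CST value. The top 5 cells held 9.74% of CCL5 UMIs in UAT and 36.1% in CST, and 22.1% and 66.7% of CCL3 UMIs. After thinning, CCL5 was seen in 43.1% of UAT and 26.9% of CST T cells, and CCL3 in 13.9% and 8.97%. Neither gene passed 2-fold in thinned cells (1041 and 756 CPM for CCL5, 339 and 192 CPM for CCL3) or as a mean of single-cell CPM. Free RNA, released by lysed cells, was estimated at 5.02% of UAT and 26.6% of CST T cell RNA. The alternative that took out free RNA left the class totals unchanged. The part of this gap in the T cell ratios was therefore not tested.

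The T cells with natural killer (NK) genes gave larger ratios for CCL5 and CCL3 than the other T cells, a difference that could not be tested with 1 library per position. Among T cells with at least 2 of 7 NK markers, 151 in UAT and 29 in CST, CCL5 was at 1856 CPM in UAT and 634 CPM in CST, a ratio of 2.93 (2.41 to 3.59). CCL3 there had a ratio of 5.53 (3.34 to 9.83), from 492 and 88.9 CPM. The top 5 cells held 26.6% of its 248 UAT UMIs and 68.8% of its 16 CST UMIs. For CCL5 in the same cells they held 11.8% in UAT and 44.7% in CST. The median depth of these cells was 3069 UMIs in UAT and 2108 UMIs in CST. Ratios of these subsets were not taken in thinned cells, so the part of depth in them was not tested. Among the remaining 190 UAT and 49 CST T cells the ratio was 0.92 (0.68 to 1.27) for CCL5 and 0.94 (0.51 to 1.84) for CCL3. In these cells the top 5 held 66% of 50 UAT and 100% of 14 CST CCL3 UMIs. The summed level of the 7 NK markers in all T cells was 1879 CPM in UAT and 849 CPM in CST, and its part in the result was not tested. CCL3 was seen in 25.3% of thinned UAT T cells with CCL5 and in 5.18% of those without. Over the 12 sums CCL5 was most like NKG7 and the granzymes GZMH and GZMB, which cytotoxic lymphocytes use to kill (Pearson r 0.997, 0.994 and 0.994).

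TNF in T cells was at 198 CPM in UAT and 104 CPM in CST, a ratio of 1.91 (1.34 to 2.79), under the 2-fold limit. It followed another pattern than CCL5, with 272 CPM in UAT T cells under 2 NK markers and 105 CPM in those with more. These levels rest on 172 and 53 UMIs, of which the top 5 cells held 40.7% and 35.8%. CCL20 was the gene lower in UAT, with 1 UMI in UAT and 30 UMIs in CST T cells, or 0.88 and 86.6 CPM. The 30 UMIs lay in 3 cells, of which 1 held 46.7%, and the difference ended when the top 5 cells of each library were left out. Its receptor CCR6 was at 20.2 CPM in UAT and 31.8 CPM in CST T cells.

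In endothelial cells, which line the vessels, CXCL8 was the single gene measured, and it was higher in UAT, beside 3.77% higher and 23.4% lower among 9222 features. CXCL8 passed the filter through UAT alone and so had to differ. It was at 46.7 CPM in 1412 UAT cells and at 13.7 CPM in 339 CST cells, a ratio of 3.41 (2.42 to 4.94). UAT held 578 UMIs in 270 cells, of which the top 5 held 7.79%, and CST held 35 UMIs in 24 cells, of which the top 5 held 42.9%. Thinned to equal depth, 3.69% of UAT and 2.66% of CST endothelial cells had a UMI, and the levels of 41.8 and 26.6 CPM were less than 2-fold apart. UAT endothelial cells with a UMI of ACKR1, a chemokine-binding receptor of venules, had 77.4 CPM of CXCL8 (325 cells), and those without it 34.4 CPM (1087 cells). CST had 16 ACKR1-positive endothelial cells with 0 CXCL8 UMIs, and 15.0 CPM in the rest. Without ACKR1-positive cells the ratio was 2.29 (1.61 to 3.35). This split was chosen after the values were seen.

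CXCL8 in UAT endothelial cells exceeded the estimate of free RNA in the suspension. RNA released by lysed cells, estimated from marker genes of other classes, would give 4.17 CPM of CXCL8 in UAT endothelial cells, 7.35 CPM in T cells, 4.34 CPM in stromal cells and 14.7 CPM in mural cells. The T cell level of 8.80 CPM is thus close to this background. For each UMI of the macrophage complement genes C1Q there were 0.29 CXCL8 UMIs in UAT macrophages, 4.48 (3.70 to 5.47) in endothelial cells and 0.62 (0.54 to 0.72) in stromal cells. CST endothelial cells held 35 CXCL8 UMIs and 1 C1Q UMI. The macrophage markers summed to 55.4 CPM in UAT and 40.7 CPM in CST endothelial cells.

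In mural cells, the smooth muscle cells and pericytes of the vessel wall, CXCL8 was again the single gene measured, beside 16.2% higher and 22.5% lower among 8122 features. Here too CXCL8 passed the filter through UAT alone and so had to differ. It had 107 UMIs in 344 UAT cells and 0 UMIs in 68 CST cells, which makes it at least 7.01-fold higher in UAT against a floor of 3 UMIs in the CST library. One UAT cell held 85.0% of these UMIs and the top 5 held 90.7%. Without the top 5 cells the UAT level was 7.05 CPM, under the free RNA estimate.

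None of the 9 genes was measured in 5089 UAT and 1674 CST stromal cells, the fibroblasts of the interstitium, where 1.88% of 8705 features were higher and 20.1% lower. IL6 came nearest, at 13.02 CPM in UAT and 3.50 CPM in CST, a ratio of 3.72 (2.68 to 5.31) that stayed below 20 CPM in both. Its 545 UAT UMIs were spread over 272 cells, of which the top 5 held 13.4%, and its 38 CST UMIs over 32 cells. The free RNA estimate for UAT stromal IL6 was 0.25 CPM. There were 1.11 (0.98 to 1.25) IL6 UMIs per C1Q UMI in UAT stromal cells and 36 IL6 to 38392 C1Q UMIs in UAT macrophages. IL6 was at 11.3 and 3.65 CPM in stromal cells with both PI16 and MFAP5, markers of adventitial fibroblasts, a ratio of 3.09 (2.04 to 4.88). In those with neither it was at 10.9 and 2.66 CPM, a ratio of 4.11 (1.35 to 20.5). Endothelial IL6 was likewise low, at 10.6 and 2.35 CPM, a ratio of 4.51 (2.02 to 12.5). Thinned shares were 1.26% and 0.66% of stromal cells in UAT and CST. CXCL8 in stromal cells was at 7.28 (6.49 to 8.15) CPM in UAT, where the free RNA estimate was 4.34 CPM, and at 1.57 (0.91 to 2.51) CPM in CST, where it was 0.44 CPM.

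Receptors for these ligands were split between the classes. CXCR2, the CXCL8 receptor of neutrophils, was at 38.4 CPM in UAT and 94.1 CPM in CST S100A8/S100A9-high cells, from 12 and 2 UMIs, and at most 5.78 CPM elsewhere. CCR1, a receptor of CCL3 and CCL5, was at 92.2 and 39.5 CPM in macrophages. CCR2 was at 49.98 CPM in UAT and 34.8 CPM in CST macrophages. IL1R1, the signalling receptor of IL1B, was at 247 CPM in UAT and 36.4 CPM in CST endothelial cells, a ratio of 6.77 (5.51 to 8.41), and at 96.0 and 25.6 CPM in stromal cells, a ratio of 3.75 (3.32 to 4.25). ACKR1 in endothelial cells was at 148 and 21.9 CPM, a ratio of 6.76 (5.18 to 8.99). The top 5 cells held 14.8% of its 1835 UAT UMIs and 69.6% of its 56 CST UMIs. Ratios of the receptors and of the other listed genes below were not taken in thinned cells. Among 12 receptor genes measured in macrophages 4 were higher and 0 lower in UAT, beside 5.67% and 24.1% of all features there, with 5 and 1 of 12 in T cells, 3 and 0 of 7 in endothelial, 2 and 0 of 5 in mural and 1 and 0 of 5 in stromal cells. The shares of all features higher and lower in UAT, which hold for each gene list, were 12.7% and 29.6% in T cells, 3.77% and 23.4% in endothelial cells, 16.2% and 22.5% in mural cells, and 1.88% and 20.1% in stromal cells.

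The other chemokines on the list gave 3 higher and 1 lower of 8 measured in macrophages, beside 5.67% and 24.1% of all features. CXCL3, a neutrophil attractant close to CXCL2 in sequence, was at 99.7 CPM in UAT and 20.5 CPM in CST macrophages, a ratio of 4.85 (2.81 to 9.19), with all 13 CST UMIs in 5 or fewer cells. Whether reads of CXCL2 or other close relatives were counted under CXCL3 could not be settled from the files. Another feature named after CXCL3 was present and was not analysed here. CCL7, another CCR2 ligand, was at 28.0 CPM in UAT and 0 UMIs in CST. CCL17, which attracts CCR4-bearing T cells, was at 5.84 CPM in UAT and 458 CPM in CST, where 5 cells held 96.6%. In the other classes 0 of 1 gene was higher in T cells, 0 of 2 in endothelial cells, 1 of 3 in mural cells and 1 of 3 in stromal cells, beside 12.7%, 3.77%, 16.2% and 1.88% of all features. The 1 lower gene among them was CXCL12 in endothelial cells, at 339 and 759 CPM, a ratio of 0.45 (0.42 to 0.47).

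The list of other cytokines gave 3 higher and 0 lower of 10 in macrophages, beside 5.67% and 24.1% of all features, among them the anti-inflammatory IL10 at 82.7 and 15.8 CPM, a ratio of 5.23 (2.81 to 11.0). In T cells 5 were higher and 1 lower of 11, beside 12.7% and 29.6%, with LTB, a lymphotoxin subunit, at 676 and 225 CPM, with an interval of the ratio from 2.38 to 3.84. The counts were 2 higher and 1 lower of 8 in endothelial cells, 1 and 0 of 4 in mural cells, beside 16.2% and 22.5%, and 0 and 0 of 6 in stromal cells.

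NF-kB feedback and target genes did not pass 2-fold in macrophages, where 0 of 14 were higher and 0 lower, with a median log2 difference of 0.41 beside 0.04 over all features. In T cells 7 were higher and 2 lower of 14, and the median was 1.07 beside 0.01. In endothelial cells 4 of 17 were higher and 0 lower, led by PTGS2, the inducible cyclooxygenase, at 313 and 68.2 CPM, a ratio of 4.59 (3.94 to 5.38). The counts were 4 higher and 2 lower of 12 in mural cells and 2 and 0 of 13 in stromal cells. Inflammasome genes, whose products process IL1B, were neither higher nor lower by 2-fold among 6 in macrophages, 3 in endothelial, 1 in mural and 3 in stromal cells, and 2 of 4 were higher in T cells, GSDMD and AIM2.

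Immediate early genes, which respond within minutes to handling as well as to cytokines, were more often past 2-fold higher than lower in UAT in each of the 5 classes compared. Of 18 measured, 9 were higher in UAT macrophages, 14 in T cells, 13 in endothelial cells, 17 in mural cells and 4 in stromal cells, and 0 were lower in each. The shares of all features higher were 5.67%, 12.7%, 3.77%, 16.2% and 1.88% in the same order. FOS was at 8832 CPM in UAT and 4275 CPM in CST macrophages and at 5299.5 and 1637 CPM in endothelial cells. EGR1 was at 1641 and 347 CPM in endothelial cells. In the S100A8/S100A9-high cells, which were not compared, FOS was at 3946 CPM in UAT and 4988 CPM in CST. Their part in the CXCL8, CCL8, CCL3 and CCL5 values was not tested, and neither was that of the enzyme digestion at 37 °C that both tissues went through.

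**Figure D5:**
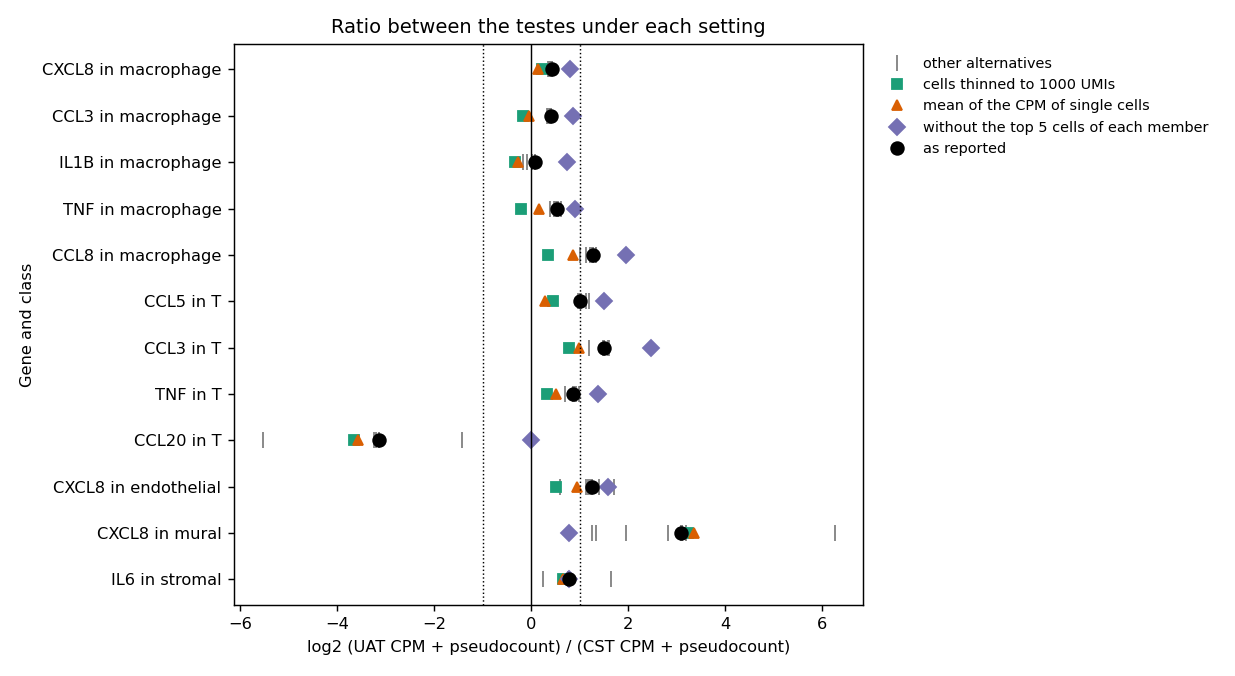
The log2 ratio of UAT to CST (x axis) for 12 pairs of gene and class (y axis) as reported (black) and under the alternatives, with dotted lines at 2-fold. The higher values of CCL8 in macrophages, CCL3 and CCL5 in T cells and CXCL8 in endothelial cells stay above 0 under every alternative drawn but fall under 2-fold when cells are thinned or averaged singly.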

How the data were processed

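Per the labels' protocols, testis tissue was digested at 37 °C with collagenase and dispase, strained and run on the 10x Genomics 3' kit, version 3. UMI counts per feature and barcode were used as deposited, as whole numbers without normalisation. Per the matrix headers they were made with Cell Ranger 5.0.0, while Cell Ranger 3.0.1 and the mouse build mm10 are given in the submitters' processing notes. The features carry macaque symbols, so the build is not settled and no coordinates or sequences are given. A RefSeq gene table (T2T-MFA8v1.1) gave symbols to 721 features named only by number. How reads of close copies, such as CCL3 relatives, were shared out is not given in the sources used here.

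Barcodes with at least 500 genes were kept. Gates asked for at least 7 of 13 macrophage, 3 of 9 T cell, 6 of 12 endothelial, 6 of 10 mural or 6 of 10 stromal markers, or 3 of 8 S100A8/S100A9-high markers with S100A8 and S100A9 at 50 per 10000 UMIs or more. No doublet caller was run. Cells meeting several gates (708 in UAT, 100 in CST) and somatic cells with 3% or more spermatid UMIs were left out. UMIs were summed per class and library and divided by the class total. Thinning used 1000 UMIs per cell. Free RNA was estimated as the median, over marker lists of other classes, of class CPM over library CPM. Intervals and floors (3 UMIs) cover counting error only. The ratio and its interval were tested on simulated Poisson counts of class sums, without differences between cells. The simulation therefore covers counting error only, not the concentration of UMIs in few cells. Named genes beyond the members were, per class and list, up to 3 with the largest log2 difference among those with at least 20 CPM and 30 UMIs, from 6 lists of 124 genes in all, 6 of which had no feature by their symbol, and not all of them are printed. The members and lists were chosen with earlier results of these data known. Alternatives covered the gene minimum, the gates, the pseudocount of 10 CPM, the filter on low values, the scaling, the top 5 cells, thinning and free RNA. Python 3.11.15, NumPy 2.4.6, SciPy 1.17.1, pandas 2.3.3 and matplotlib 3.10.9 were used.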

Additional observations from a re-analysis of the deposited data

How the results depend on the processing

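Of the 11 measured pairs 5 were higher and 1 was lower in UAT. Stricter gates left 2 higher and 0 lower, over 34 pairs of gene and class in place of 41, since the T cells of CST then fell under 50 cells and were not compared, and CXCL8 in mural cells also lost its call. A pseudocount of 50 CPM left 3 higher, and so lost CCL5 in T cells and CXCL8 in endothelial cells. Without the top 5 cells of each gene 0 were lower, CXCL8 in mural cells was no longer higher, and TNF in T cells became higher with a log2 ratio of 1.38. Cells thinned to 1000 UMIs gave 1 higher and 0 lower, and the mean of the CPM of single cells, added after the data were seen, gave 1 higher. In both, the 1 higher pair was CXCL8 in mural cells, which rests on 1 cell. Thinning turned macrophage CCL3 to -0.17, IL1B to -0.33 and TNF to -0.20 on the log2 scale, against 0.40, 0.07 and 0.53 as reported. The mean of single-cell CPM gave -0.05 for CCL3 and -0.28 for IL1B, and IL1B was also at -0.18 with cells of 2 gates kept and at -0.09 under stricter gates. Log2 ratios over all alternatives ran from 0.35 to 1.94 for CCL8 in macrophages, 0.79 to 2.46 for CCL3 and 0.28 to 1.49 for CCL5 in T cells, and 0.50 to 1.70 for CXCL8 in endothelial cells. Median-of-ratios scaling raised log2 ratios by 0.11 in T cells and by 0.11 in mural cells and lowered them in endothelial cells (a change of -0.15). It kept the call of all 41 pairs. Only 11 of these were measured, and the others had no call because they were under the filter. Sums weight deep cells more than thinned values do, and the cause of the differences was not tested further. No paired analysis was possible because each position had 1 library. Replicates could not be left out for the same reason, and the 103 CST macrophages and 78 CST T cells set the precision.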

Other observations

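Outside the 6 classes, CCL20 in UAT was mainly found in Sertoli cells, the somatic cells of the tubule that nurse germ cells. The 304 UAT Sertoli cells held 351 CCL20 UMIs, or 48.4% of the library's and 63.3 CPM. One cell held 62.4% of these and the top 5 held 79.8%, over 24 cells with a UMI. The 13 CST Sertoli cells held 1 UMI, so the testes were not compared. IL6 was also found in UAT peritubular myoid cells, the contractile layer around the tubule, with 87 UMIs in 36 cells and 5.95 CPM, beside 11 UMIs and 2.72 CPM in CST.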
